A study of Homo sapiens with 2 samples.

Results

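The ATF4 branch of the integrated stress response was examined in ATAC-seq peaks of 293T cells through 9 genes: ATF4, DDIT3, CEBPB, TRIB3, PPP1R15A, ASNS, CHAC1, SESN2 and DDIT4. They were listed by name, out of 20033 protein-coding genes of GENCODE 44 on chromosomes 1 to 22, X and Y, with earlier results of these data known, and the rule itself uses no measured value. Every deposited peak within 1000 bp of any transcription start site (TSS) of a gene, over the gene body or within 50 kb of a TSS was used, which gave 36 of the 36142 control peaks and 32 of the 22884 MGO peaks. ATAC-seq marks DNA that the transposase Tn5 can reach, so that a peak is a stretch of accessible chromatin. Both groups are 293T, a line made from human embryonic kidney. The MGO group is 1 library of 50000 cells kept for 12 h in medium with 0.5 mM methylglyoxal (MGO), a reactive by-product of glycolysis that glycates histones. The control group is 1 library of 50000 cells from a parallel culture, for which a label names PBS while the treatment notes describe plain fresh medium. The comparison asks whether MGO altered the accessibility of DNA in these cells.

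With 1 library analysed per condition there is no replicate, so the differences below have no test and no replicate check, and the 95% intervals cover counting error over peaks only. The labels assign each peak list to 1 sample, but the peak names in both lists carry the number 2 and the study's methods name a consensus step by irreproducible discovery rate, so further libraries may exist that were not analysed here. The files give positions and peak scores without read counts, so the depth behind a peak is unknown. The lists reach down to a −log10 q of 1.01 (a false discovery rate of about 0.1). Of 6 genes listed as open in this line, VIM, KRT8, KRT18, LIN28B and PAX2 had a TSS peak in both libraries and NES in control only, and PTPRC, CD3E, ALB and HBB of blood and liver cells had none.

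The integrated stress response begins when kinases that sense amino acid shortage, unfolded protein in the endoplasmic reticulum, viral RNA or lack of heme phosphorylate the translation factor eIF2. Most protein synthesis then slows, while translation of the ATF4 mRNA increases, and ATF4 switches on genes of amino acid supply, of glutathione turnover, of mTORC1 restraint and of feedback. ATF4 binds its targets as a dimer with C/EBP proteins or relatives at the C/EBP-ATF response element, here called CARE and searched as TGATGNAA on both strands, with TGATGCAA as its strict form, whose other strand reads TTGCATCA.

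The CARE matches that lay inside the TSS peaks of both libraries are shown first. They are matches by sequence to the element that ATF4 binds, and binding of ATF4 to them was not measured here. The letters come from GRCh38, each run reads 5′ to 3′ along the gene, and capitals mark the match.

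TRIB3, chr20:380881-380910, plus strand: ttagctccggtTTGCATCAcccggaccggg

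TRIB3, chr20:380914-380943, plus strand: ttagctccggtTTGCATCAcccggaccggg

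TRIB3, chr20:380947-380976, plus strand: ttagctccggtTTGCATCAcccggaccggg

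CHAC1, chr15:40953251-40953280, plus strand: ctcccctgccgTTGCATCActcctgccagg

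SESN2, chr1:28260059-28260088, plus strand: cgggacccgggTTGCATCAactggcagccg

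ASNS, chr7:97872458-97872487, minus strand: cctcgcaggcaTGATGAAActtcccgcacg

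The DDIT3 match is shown with its surroundings, 221 bases upstream of the canonical TSS that hold no annotated exon of DDIT3. The capitals mark the CARE match and, close to the 3′ end, a match to the AP-1 motif TGACTCA. Both matches lie in introns of DDIT3 and of MBD6.

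DDIT3, chr12:57520744-57520964, minus strand: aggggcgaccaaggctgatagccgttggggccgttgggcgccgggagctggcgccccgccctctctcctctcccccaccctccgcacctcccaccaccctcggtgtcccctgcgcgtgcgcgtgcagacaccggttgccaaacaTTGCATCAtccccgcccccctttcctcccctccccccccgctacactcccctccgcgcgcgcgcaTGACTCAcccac

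The 3 TRIB3 windows are identical letter for letter, and their matches stand 132, 165 and 198 bp downstream of the canonical TSS, in an exon.

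All 9 genes had a TSS peak in control and all 9 had one in MGO. Among all protein-coding genes 67.3% had a control TSS peak, 63.9% an MGO TSS peak and 62.6% both. The strongest control TSS peak, by −log10 p, overlapped an MGO peak at each of the 9 genes, against 92.5% of the protein-coding genes with a control TSS peak. At the q threshold of the methods, a −log10 q of at least 2, the 9 genes had a TSS peak in control and 8 did in MGO (63.3% and 57.8% of protein-coding genes). The exception was TRIB3, whose MGO peak had a −log10 q of 1.43. Annotated start sites of the 9 genes numbered 45, of which 36 lay inside a control peak and 36 inside an MGO peak. The start sites outside a peak included 5 of the 16 of ASNS, which all lay over 1000 bp from any peak in both libraries, and the outermost TSS of TRIB3.

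**Figure D1:**
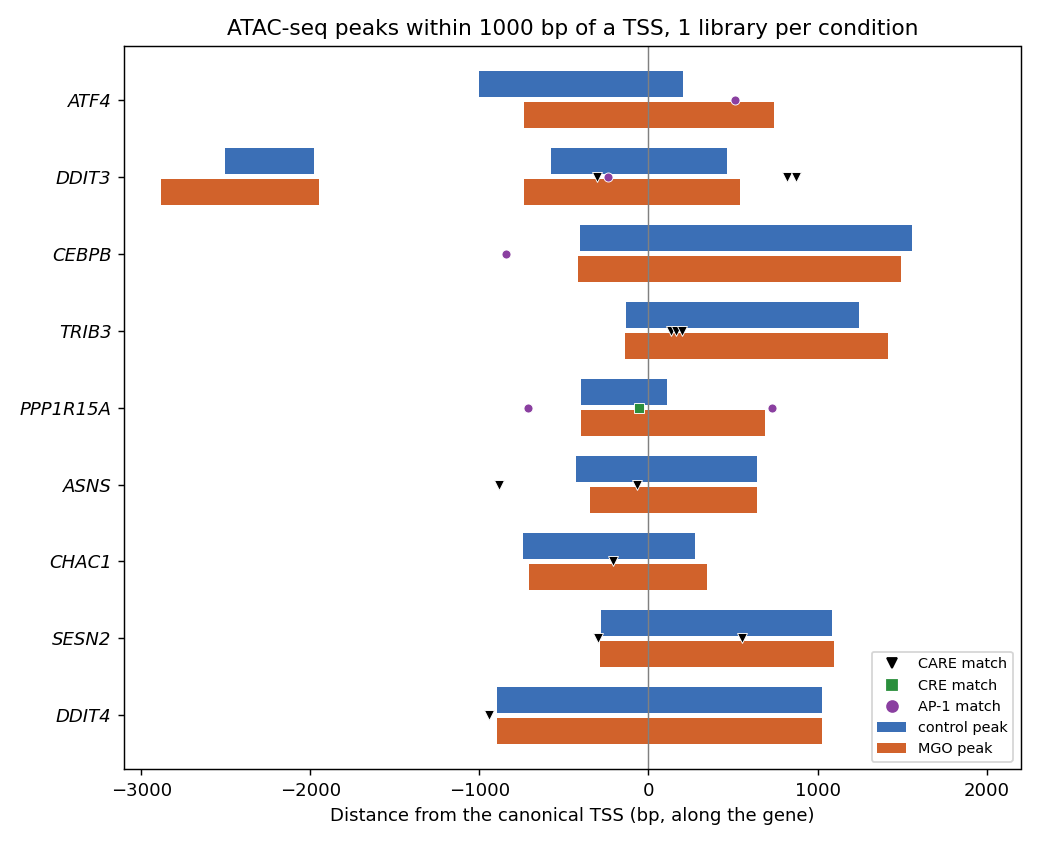
Peaks within 1000 bp of a TSS of the 9 genes, as bars along the distance from the canonical TSS in bp (blue, control; orange, MGO), with matches to CARE (triangles), CRE (square) and AP-1 (circles) within 1000 bp of the canonical TSS. The bars coincide at DDIT4, the MGO bar reaches 540 bp further downstream than the control bar at ATF4, and at PPP1R15A 583 bp further.

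Among the transcription factors, ATF4 itself, the leucine zipper protein at the centre of the response, had the largest difference in peak strength in favour of MGO. Its control peak at chr22:39519562-39520764 was 1203 bp wide with a fold enrichment over background of 2.55 and a −log10 p of 5.40. The MGO peak at chr22:39519826-39521304 was 1479 bp wide with a fold enrichment of 2.86 and a −log10 p of 8.31. Both peaks covered the canonical TSS at 39520562 and shared 939 bp. The MGO peak began 264 bp further downstream and so left uncovered the outermost ATF4 start site, which was the only TSS of the 9 genes in a control peak alone. The 540 bp that the MGO peak added downstream run into the gene and hold an AP-1 match 513 bp downstream of the TSS, inside an exon of at least 1 ATF4 transcript.

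DDIT3 encodes CHOP, a C/EBP family factor that promotes cell death under lasting stress. It had 2 peaks within 1000 bp of a TSS in each library. The peak over its canonical TSS, chr12:57520051-57521092 in control and chr12:57519972-57521252 in MGO, had a −log10 p of 5.63 in control and 6.23 in MGO, and the MGO peak contained the control peak whole. The other, chr12:57522492-57523018 in control and chr12:57522463-57523396 in MGO, was 527 bp wide in control and 934 bp in MGO, with −log10 p values of 3.44 and 4.27. The −log10 q of this second peak was 1.30 in control and 1.86 in MGO, under the q threshold of the methods in both libraries. Both peaks of DDIT3 were thus wider and of higher −log10 p in MGO, the second among weak calls. Both also lay within 1000 bp of a TSS of MBD6, a gene on the opposite strand, and the peaks cannot be assigned to either gene alone.

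CEBPB encodes C/EBPβ, a partner of ATF4 and CHOP. Its promoter peak covered most of this single-exon gene, at chr20:50190427-50192389 in control and chr20:50190412-50192323 in MGO. The widths were 1963 and 1912 bp, the fold enrichment 2.65 and 2.44, and the −log10 p 5.66 and 4.96, each lower in MGO. The peaks also covered exon sequence of the antisense gene CEBPB-AS1, and ATAC-seq does not tell strands apart.

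The feedback inhibitors had lower peak scores and wider peaks in MGO. TRIB3 encodes a pseudokinase that binds ATF4 and restrains it. Its control peak at chr20:380629-382003 had a fold enrichment of 3.24 and a −log10 p of 6.21, and its MGO peak at chr20:380620-382178 had 2.55 and 3.79. The MGO peak contained the control peak and with it the 3 strict CARE repeats, and its −log10 p was the lowest of the TSS peaks of the 9 genes in MGO. PPP1R15A encodes GADD34, which directs a phosphatase to eIF2 and so ends the response. Its control peak at chr19:48872023-48872530 was the narrowest of the strongest TSS peaks, 508 bp, with a fold enrichment of 3.13 and a −log10 p of 5.57. The MGO peak at chr19:48872020-48873113 was 1094 bp wide with values of 2.37 and 4.71. The upstream edges differed by 3 bp, whereas the downstream edge lay 583 bp further into the gene in MGO, over the PPP1R15A start site that control left uncovered.

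The metabolic genes are ASNS, which encodes asparagine synthetase, and CHAC1, which encodes an enzyme that breaks down glutathione. ASNS had the strongest TSS peak of the 9 genes in control, chr7:97871766-97872835, with a fold enrichment of 5.46 and a −log10 p of 25.8. In MGO the peak at chr7:97871766-97872751 had a fold enrichment of 3.97 and a −log10 p of 11.3. The downstream edges were the same base, and the MGO peak lacked 84 bp on the upstream side. CHAC1 had a control peak at chr15:40952727-40953746 and an MGO peak at chr15:40952762-40953820 that shared 985 bp, with −log10 p values of 5.92 and 5.60. Of the 9 genes ASNS had the lowest ratio of −log10 p, MGO over control, while CHAC1 had nearly the same value in both libraries.

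SESN2 and DDIT4 encode proteins that restrain the growth kinase complex mTORC1. The SESN2 peaks, chr1:28259236-28260602 in control and chr1:28259234-28260618 in MGO, differed by 2 bp at the upstream edge and 16 bp at the downstream edge, with a −log10 p of 12.0 in control and 13.8 in MGO. The DDIT4 peaks had the same first and last base in both libraries, chr10:72273026-72274951, a width of 1926 bp, with a −log10 p of 10.9 in control and 9.90 in MGO. Of 12476 protein-coding genes with paired TSS peaks, 2 had identical edges, DDIT4 and TMEM184C (0.0160%). SESN2 and DDIT4 were 2 of the 3 genes, with ASNS, whose control TSS peak had a −log10 q of at least 5.

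**Figure D2:**
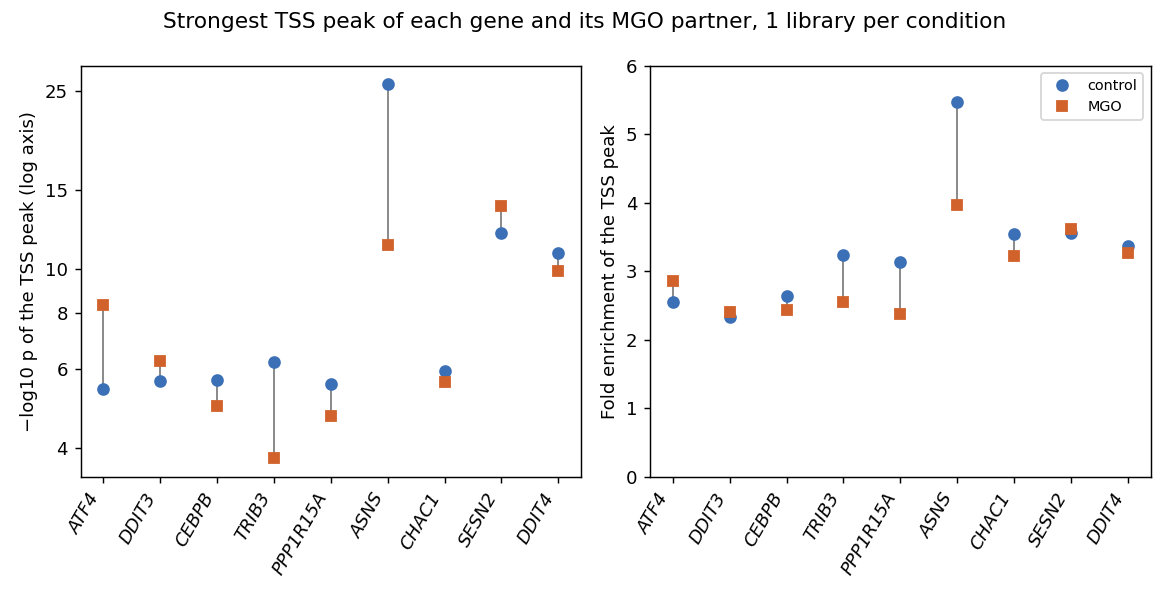
−log10 p on a log axis (left) and fold enrichment over background (right) of the strongest control TSS peak of each gene (blue circle) and of the MGO peak that overlaps it most (orange square), the authors' values, 1 library per condition and no error bars. The square lies above the circle at ATF4, DDIT3 and SESN2 in both panels and below it at the other 6 genes, furthest at ASNS.

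Across the 9 genes the −log10 p and the fold enrichment were higher in MGO at 3, ATF4, DDIT3 and SESN2, and lower at 6. Among all paired TSS peaks of protein-coding genes the −log10 p was higher in MGO in 21.4% and the fold enrichment in 23.9%. The median ratio of −log10 p, MGO over control, was 0.909 over the 9 genes and 0.805 over all paired genes. For fold enrichment these medians were 0.921 and 0.916. The ratio at ATF4, 1.54, was above that of 99.0% of paired genes, and the ratio at ASNS, 0.439, was above that of 1.40%. For fold enrichment their ratios were above those of 94.7% and 4.21%. These genes began from unlike control strengths. The control −log10 p at ATF4 was above that of 16.4% of genes with a control TSS peak, and at ASNS above that of 97.8%. The median control −log10 p was 5.92 over the 9 genes and 9.12 over all protein-coding genes with such a peak. The part of control strength in the ratios was not tested. Scores of separate libraries depend on the background of each, and its part in these ratios was not tested.

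The MGO TSS peak was wider than the control peak at 6 of the 9 genes, narrower at CEBPB and ASNS and equal at DDIT4. Among all paired genes the MGO peak was wider in 33.0% and narrower in 66.8%. The median ratio of widths was 1.04 over the 9 genes and 0.908 over all paired genes. The ratio at PPP1R15A, 2.15, was above that of 99.0% of paired genes. An MGO peak that reached at least 500 bp further downstream, a limit set after the values were seen, occurred at ATF4 and PPP1R15A and at 2.48% of all paired genes.

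**Figure D3:**
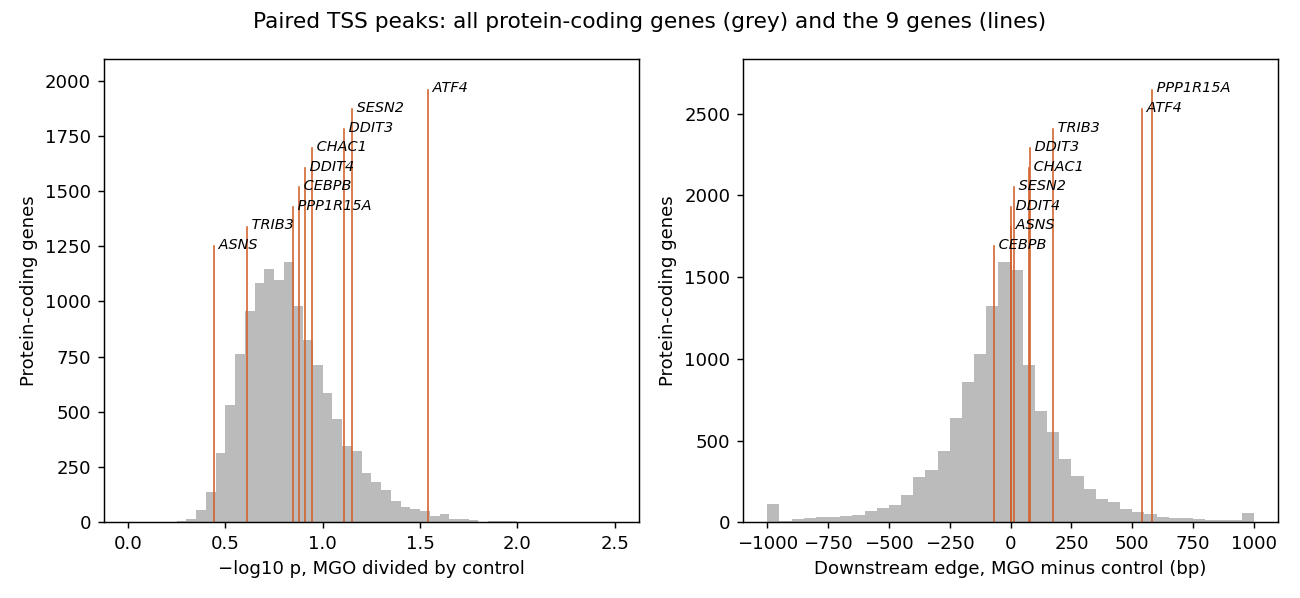
Number of protein-coding genes with paired TSS peaks (grey bars) by the ratio of −log10 p, MGO divided by control (left), and by the position of the downstream peak edge, MGO minus control, in bp (right), with the 9 genes as orange lines whose height has no meaning. The outermost bars also hold all values beyond them. ATF4 lies in the right tail of both panels (1.54 and 540 bp), ASNS in the left tail of the left panel (0.439) and PPP1R15A in the right tail of the right panel (583 bp).

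In the wider surroundings, the 36 control peaks covered 35033 bp and the 32 MGO peaks 32091 bp. The ratio of peak numbers was 0.889 (exact binomial interval 0.534 to 1.47), against 0.667 around all protein-coding genes. The interval takes both counts as independent although 26 peaks of each library overlap, so it cannot decide whether the ratios differ. The ratio of covered length was 0.916, against 0.676 around all protein-coding genes. With equal numbers of peaks taken from both libraries the ratio of peak numbers was 1.14 (32 MGO and 28 control peaks) and that of covered length 1.05. MGO thus had the larger values at this setting. Equal numbers raise the ratio of the whole lists by construction, and the ratios around all protein-coding genes were not computed at this setting. Shared peaks, which overlap a peak of the other library, numbered 26 in control, a share of 72.2% (Wilson interval 56.0 to 84.2%), against 56.0% around all protein-coding genes. In MGO they numbered 26 as well, a share of 81.25% (Wilson interval 64.7 to 91.1%), against 84.1%. All 10 control peaks at a TSS of the genes themselves were shared, and so were 12 of 14 at a TSS of a neighbouring gene, whereas 4 of 12 distal control peaks were (33.3%, Wilson interval 13.8 to 60.9%). Around all protein-coding genes, 86.0% of control peaks at a TSS and 23.0% of distal ones were shared. In MGO, all 10 peaks at a TSS of the genes themselves, 12 of 15 at a neighbouring TSS and 4 of 7 distal peaks were shared, against 95.9% at a TSS and 56.0% of distal peaks around all protein-coding genes. The 26 shared pairs held 12 in which the MGO peak was narrower (46.2%, Wilson interval 28.8 to 64.5%), against 69.2% around all protein-coding genes.

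**Figure D4:**
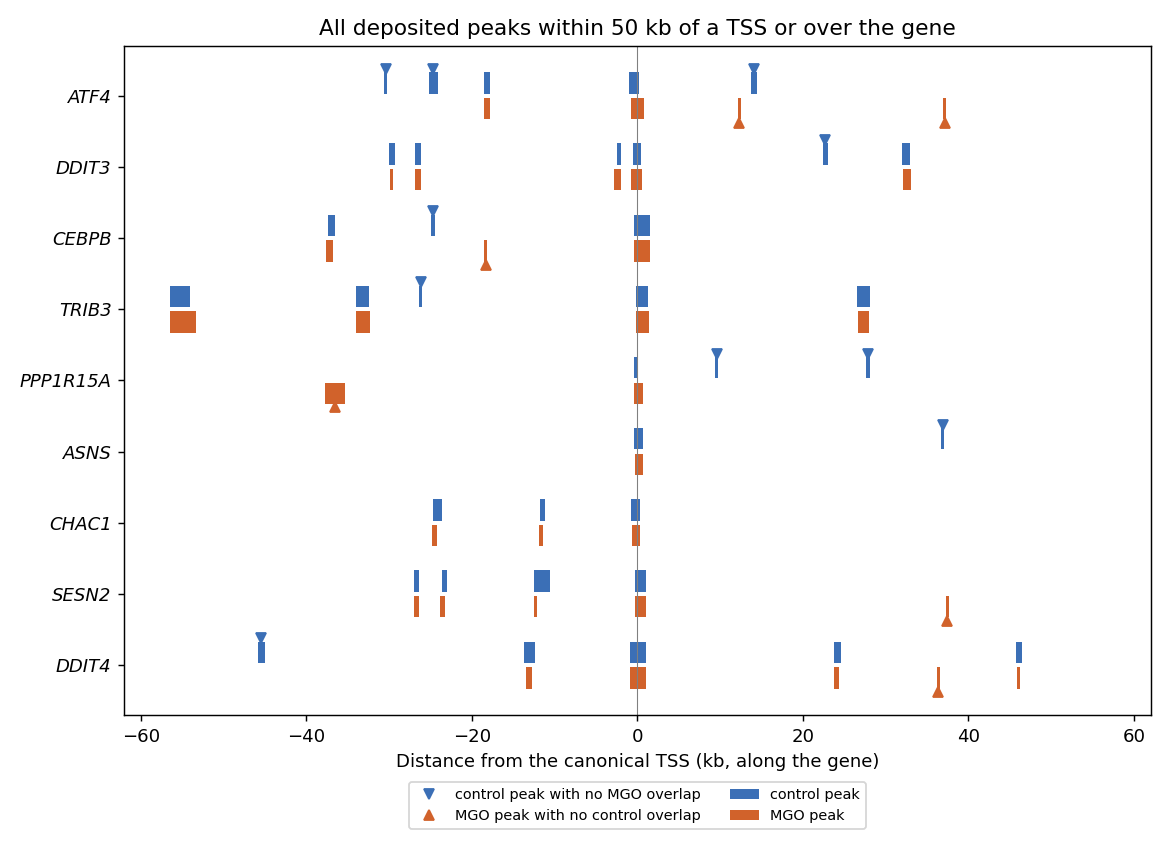
All control peaks (blue) and MGO peaks (orange) around the 9 genes, drawn to scale along the distance from the canonical TSS in kb, with triangles at peaks that no peak of the other library overlaps. The 10 blue triangles lie at 7 genes and the 6 orange triangles at 5, and none lies at a TSS of the gene itself.

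Control peaks without MGO overlap numbered 10 and lay around 7 genes, all but CHAC1 and SESN2, and around 55.8% of all protein-coding genes. ATF4 had 3 of them, at chr22:39489978-39490318 over an exon of MGAT3 and, in intergenic DNA, at chr22:39495344-39496503 and chr22:39534323-39535063. PPP1R15A had 2, at chr19:48881751-48882219 over an exon of TULP2 and at chr19:48900070-48900542 at the NUCB1 promoter. The other 5 genes had 1 each. DDIT3 had one at chr12:57497523-57498049 in an intron of MARS1, and CEBPB one at chr20:50165915-50166331 at the lncRNA gene LINC01275. TRIB3 had one at chr20:354410-354697 over an exon of NRSN2. ASNS had one at chr7:97835303-97835702 in intergenic DNA, and DDIT4 one at chr10:72228058-72228932 in an intron of ANAPC16. These 10 peaks were weak, with −log10 p values from 3.49 to 5.30, and 4 of them had a −log10 q of at least 2. With both lists cut at that threshold, 6 of the 9 genes had a control-only peak, against 44.7% of all protein-coding genes. The median number of control peaks around a gene was 4 for the 9 genes and 3 for all protein-coding genes. Counted by peak, 72.2% of the control peaks around the 9 genes were shared, against 56.0%.

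MGO peaks without control overlap numbered 6 and lay around 5 of the 9 genes (ATF4, CEBPB, PPP1R15A, SESN2 and DDIT4), against 21.3% of all protein-coding genes and 22.4% of those with a TSS peak in both libraries. No such peak lay around the other 4 genes, as around 78.7% of all protein-coding genes. The median number of MGO peaks around a gene was 4 for the 9 genes and 2 for all protein-coding genes. Counted by peak, 81.25% of the MGO peaks around the 9 genes were shared, near the 84.1% around all protein-coding genes. Of the 6, those with a −log10 q of at least 2 lay at ATF4 alone, 1 of 9 genes against 11.6%. ATF4 had 2 of them. The peak at chr22:39532718-39533023 covered an exon of RPS19BP1 within 1000 bp of its TSS, with a −log10 p of 4.54, and a control-only peak began 1300 bp further on. The peak at chr22:39557532-39557817 was intergenic, 36970 bp downstream of the canonical ATF4 TSS and 22469 bp from the nearest control peak, with a −log10 p of 4.93. CEBPB had an MGO-only peak at chr20:50172329-50172707 at the lncRNA gene LINC01273. PPP1R15A had one at chr19:48834695-48837140, 2446 bp wide, over exons of HSD17B14 and PLEKHA4. SESN2 had one at chr1:28296839-28297125, 37321 bp downstream of its TSS, and DDIT4 one at chr10:72310089-72310467, 36165 bp downstream, both intergenic.

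The 2 narrowest MGO-only peaks are shown whole, as the distal DNA that was called in MGO alone. Neither held a match to any motif searched, so no letter is in capitals. The other 4 MGO-only peaks held none either, while among the 10 control-only peaks the one at LINC01275 near CEBPB held 2 AP-1 matches and the one near ASNS held 1.

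ATF4 surroundings, chr22:39557532-39557817, plus strand: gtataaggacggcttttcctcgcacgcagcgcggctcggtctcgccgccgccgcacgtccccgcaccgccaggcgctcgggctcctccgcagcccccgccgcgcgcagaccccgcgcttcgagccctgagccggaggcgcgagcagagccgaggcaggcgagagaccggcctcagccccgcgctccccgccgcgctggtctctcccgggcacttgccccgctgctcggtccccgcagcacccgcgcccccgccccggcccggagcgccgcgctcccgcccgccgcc

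SESN2 surroundings, chr1:28296839-28297125, plus strand: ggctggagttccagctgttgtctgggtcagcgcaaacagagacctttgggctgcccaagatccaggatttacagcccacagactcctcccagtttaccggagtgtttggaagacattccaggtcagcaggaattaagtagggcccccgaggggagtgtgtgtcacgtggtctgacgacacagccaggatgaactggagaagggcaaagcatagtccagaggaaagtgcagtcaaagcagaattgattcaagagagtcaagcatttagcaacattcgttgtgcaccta

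The first is rich in CpG, with 80.1% G and C and 17.1 CpG per 100 bp, and the second has 51.9% and 2.09.

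Distal peaks present in both libraries were found at 2 genes. CHAC1 had one at chr15:40941671-40942327 in control and chr15:40941612-40942110 in MGO, 11144 bp upstream of its TSS in control, with −log10 p values of 6.42 and 5.89. DDIT4 had 3, of which the strongest, 23729 bp downstream of the TSS at chr10:72297653-72298503 in control, had a −log10 p of 11.7, higher than the 10.9 of the DDIT4 promoter peak. In MGO it lay at chr10:72297645-72298302 with a −log10 p of 5.64, and all 3 DDIT4 distal peaks were narrower and of lower −log10 p in MGO. The others lay at chr10:72260243-72261606 in control and chr10:72260496-72261218 in MGO, with −log10 p values of 6.84 and 4.49, and at chr10:72319726-72320357 and chr10:72319817-72320120, with 4.25 and 3.64. The promoters of neighbouring genes gave the other 12 shared pairs. Around DDIT3, the 5 MGO peaks each overlapped a control peak. The pair at MARS1, the gene of methionyl-tRNA synthetase, lay at chr12:57487603-57488509 in control and chr12:57487443-57488459 in MGO and shared 857 bp. The pair at DCTN2, a dynactin subunit gene, lay at chr12:57546650-57547330 and chr12:57546675-57547430 and shared 656 bp. The pair at KIF5A, the gene of a kinesin motor, lay at chr12:57549778-57550469 and chr12:57550039-57550462 and shared 424 bp. All 3 had a lower −log10 p in MGO.

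TRIB3 lies among 3 such promoters. The pair at SOX12, a transcription factor gene, lay at chr20:324239-326697 in control and chr20:324262-327419 in MGO, 2459 and 3158 bp wide, and shared 2436 bp. The pair at NRSN2 lay at chr20:346701-348287 and chr20:346707-348409 and shared 1581 bp. The pair at RBCK1, a ubiquitin ligase subunit gene, lay at chr20:407278-408876 and chr20:407376-408703 and shared 1328 bp. The MGO peak was wider at SOX12 and NRSN2 and narrower at RBCK1.

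Around SESN2, the peak at the lncRNA gene ENSG00000271398 lay at chr1:28246969-28249000 in control and chr1:28246971-28247439 in MGO, 2032 and 469 bp wide, with −log10 p values of 7.18 and 7.33. The pair at DNAJC8 lay at chr1:28232564-28233119 and chr1:28232542-28233104 and shared 541 bp. The pair at ATP5IF1, which encodes an inhibitor of the mitochondrial ATP synthase, lay at chr1:28235910-28236514 and chr1:28235708-28236272 and shared 363 bp. The widths in the DNAJC8 and ATP5IF1 pairs were close, unlike those of the lncRNA pair. ATF4, CEBPB and CHAC1 had 1 shared neighbouring promoter each. That of MIEF1 near ATF4 lay at chr22:39501972-39502795 in control and chr22:39502076-39502739 in MGO and shared 664 bp. That of PEDS1 near CEBPB lay at chr20:50153489-50154258 and chr20:50153194-50154105 and shared 617 bp. That of DLL4, a Notch ligand gene near CHAC1, lay at chr15:40928722-40929846 and chr15:40928617-40929266 and shared 545 bp.

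CARE matches were found within 1000 bp of the canonical TSS at 6 of the 9 genes, against 18.7% of all protein-coding genes, and the strict form at 5 against 3.68%. The genes had been chosen as known members of the ATF4 response, so this is a description of them. In windows from 250 bp upstream to 50 bp downstream of RefSeq start sites (GRCh38.p14), 3.62% of 35116 promoters held CARE and 0.866% the strict form. Of the 9 genes 2, CHAC1 and ASNS, held CARE in at least 1 of their promoters. The percentages count promoters and the 2 counts genes, so they are unlike measures. Of the 12 CARE matches, 7 lay inside a control peak, the same 7 lay inside an MGO peak and the other 5 lay in neither. TRIB3 was the only gene of 20033 with 3 or more strict matches in this window. The strict match of DDIT4, 946 bp upstream of its TSS at chr10:72272978-72272985, lay upstream of the DDIT4 peak, outside it in both libraries. The promoter peak of MARS1 near DDIT3 also held a strict match in both libraries. The cAMP response element TGACGTCA, bound by ATF and CREB proteins, occurred at PPP1R15A alone, 58 bp upstream of the TSS and inside both peaks, and in 4.18% of all windows.

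PPP1R15A, chr19:48872352-48872381, plus strand: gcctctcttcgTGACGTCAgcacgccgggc

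AP-1 matches (TGACTCA, 20.2% of windows) occurred at 4 genes, and the 1 at ATF4 was the only motif match in these windows that lay in a peak of 1 library alone. Counted over whole peaks, the TRIB3 MGO peak held 4 CARE matches and the control peak 3, with 3 strict matches in each.

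ATF4, chr22:39521064-39521092, plus strand: cggcgcgggcgTGAGTCAagggcgggcgg

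No match to the C/EBP palindrome TTGCGCAA or to the endoplasmic reticulum stress element ERSE was found in these windows, which hold them in 0.719% and 0.195% of all genes.

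A wider list of 58 genes was read for its TSS peaks. In it, 7 genes belong to the other arms of the unfolded protein response and the rest to the same response as the 9 genes. Of the 58 genes, 54 had a TSS peak in both libraries (93.1%, against 62.6% of all protein-coding genes), 2 in control only, none in MGO only and 2 in neither. Over all 20033 genes, 946 had one in control only and 253 in MGO only. All 11 genes of the eIF2 machinery, which include the kinases that phosphorylate eIF2, had TSS peaks in both, as did the 5 transcription factors, the 6 amino acid transporters, the 11 aminoacyl-tRNA synthetases and the 7 genes of the other arms of the unfolded protein response. Of the 11 enzymes of amino acid and one-carbon synthesis, 10 did. The exception was PYCR1, the gene of a proline synthesis enzyme, whose control peak had a −log10 p of 4.20. Among the 7 secreted and other stress targets, 4 did. GDF15, the gene of a circulating stress hormone, had a control peak alone with a −log10 p of 3.95, and FGF21, the gene of a metabolic hormone, and NUPR1, the gene of a small stress-induced chromatin protein, had no TSS peak. Of 53 paired TSS peaks, 3 had a higher −log10 p in MGO, which is 5.66% against the 21.4% over all paired genes. Named after their values were seen, they are JDP2, SLC1A5 and SDF2L1, the last a gene of the other arms of the unfolded protein response. BBC3, with a TSS peak in both libraries, was not paired, since no MGO peak overlapped its strongest control TSS peak. The strongest BBC3 TSS peak had a −log10 p of 4.17 in control and 5.92 in MGO. The MGO peak was wider in 19 of the 53, against 33.0% of all paired genes. An MGO-only peak lay around 14 of the 58 genes (24.1%), near the 21.3% of all protein-coding genes and the 22.4% of those with TSS peaks in both. MARS1, which is in this list, lies close to DDIT3 on chromosome 12, and its promoter peaks are among those counted around DDIT3.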

How the data were processed

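The data are ATAC-seq peak lists of 293T cells, 1 for control and 1 for MGO. The authors aligned reads to GRCh38 with BWA-MEM 0.7.15 (submitters' processing notes), dropped reads from mitochondria or with several placements (Picard Tools), equalized depth by random subsetting, and ran MACS2 in broad mode outside ENCODE blacklisted regions. The MACS2 version is not given in the sources used here. Each list was taken as the calls of 1 library, since the labels assign it to 1 sample. The methods also name consensus peaks by irreproducible discovery rate, and whether that step touched these lists is not given in the sources used here. The deposited columns are a fold enrichment over background (a ratio), a −log10 p, a −log10 q and a score made from the q-value, which was not used. A mean over a broad peak falls when the peak is extended, and neighbouring calls can be joined, so widths and scores depend on the caller.

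All deposited peaks on chromosomes 1 to 22, X and Y were used. Overlap counted from 1 bp. TSSs were transcript starts of GENCODE 44, and a peak was distal when no TSS of a protein-coding or lncRNA gene lay within 1000 bp. The paired TSS peaks are the control TSS peak of highest −log10 p and the MGO peak with the longest overlap. No test was made, since each condition has 1 list. The text names the 9 genes with all their peaks and, of the wider list, genes without a TSS peak in both libraries. JDP2, SLC1A5, SDF2L1, BBC3, MARS1 and TMEM184C were named outside this rule, after their values or positions were seen. Members, lists and motifs were chosen with earlier results of these data known. Overlap counting was tested on simulated peaks and checked against bedtools. Python 3.11.15, numpy 2.4.6, pandas 2.3.3, scipy 1.17.1, pysam 0.24.0 and matplotlib 3.10.9 were used.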

Additional observations from a re-analysis of the deposited data

How the results depend on the processing

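No paired analysis was possible because each condition has a single list and no value comes from a test. Of 64 recomputed values, 52 lay inside the counting interval of the one in the text (for gene counts and covered length, within 1.5 times), and 12 lay outside. At a −log10 q of at least 5, 3 genes had a TSS peak in control and 4 in MGO, 1 had an MGO-only peak and 3 a control-only peak around them. At a −log10 q of at least 2, 1 gene had an MGO-only peak, against 11.6% of all protein-coding genes, and 91.3% of MGO peaks overlapped a control peak. With equal numbers of peaks, 85.7% of control peaks overlapped an MGO peak and 3 genes had a control-only peak, and the MGO to control ratios of peak number and covered length turned to 1.14 and 1.05. Within 10 kb of the TSS, 100% of MGO peaks were shared, 0 genes had an MGO-only and 2 a control-only peak, and the MGO peak was narrower in 20% of pairs. Stricter thresholds and shorter distances leave fewer peaks by construction. Beyond that, the cause was not tested. At a −log10 q of at least 2 the number of genes with an MGO-only peak went from 5 to 1, and that with a control-only peak from 7 to 6. The peaks of both kinds were weak, with a median −log10 p of 4.29 for MGO-only and 4.08 for control-only peaks. Without read counts, a peak missing from a list cannot be told apart from one just under the calling limit.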

Other observations

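The G and C content of the strongest control TSS peak ran from 55.1% at PPP1R15A, above 10.1% of protein-coding genes with paired TSS peaks, to 72.6% at CEBPB, above 87.2% of them, with a median of 64.7% over all of these genes. The control-only peaks differed among themselves in the same measure, from 40.2% in the ANAPC16 intron near DDIT4 to 60.7% at the NUCB1 promoter near PPP1R15A.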
